A study of Rattus norvegicus with 4 samples.

Results

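The genes Cdk1, Birc5, Mki67 and Stmn1 serve in cell division and are often read as a measure of proliferation. They were taken by gene symbol, and each symbol stood on a single entry, so the set holds 4 of the 18957 genes or UniGene-type entries of the series. All 4 were seen in every library. The study followed radiation dermatitis, the skin injury caused by radiotherapy, in the footpad of the hindlimb of Sprague Dawley rats, an outbred stock. RNA was measured by digital gene expression, in which each transcript is counted through a short tag cut at a CATG site. The day 0 skin was the control, and the protocol puts 2 irradiations before the day 3 collection and 4 before those of days 6 and 9. Each irradiation was 10 Gy of 9 MeV electrons at 500 cGy/min, on days 1, 2, 4 and 5. The short descriptions of the samples differ from this, since the one for day 0 speaks of day 1 and each later one names a single irradiation day. No animal number, sex or pooling was stated in the labels. With 1 library a day there is no spread between animals to measure. Every interval given is a 95% interval for counting error only, and ratios compare single libraries.

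Cells entering mitosis activate CDK1, a kinase that works with cyclins A and B, while WEE1 holds it back. Survivin, the product of Birc5, sits in the chromosomal passenger complex with Aurora B, INCENP and borealin, and guides chromosome attachment and the cleavage of the cell. Ki-67, the product of Mki67, coats mitotic chromosomes and is the usual stain for cycling cells, and stathmin, the product of Stmn1, takes microtubules apart until mitotic kinases switch it off. In resting epidermis such cells lie mainly in the basal layer, which renews the skin and is sensitive to radiation.

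Nearly the whole count of each gene rested on a single 21-base tag, shown here because these letters are what was measured. The capitals mark the CATG site at which the tag begins.
Cdk1: CATGtaaatattattccatat
Birc5: CATGgggtaatggaataaaat
Mki67: CATGaagatcaccagggatct
Stmn1: CATGaaaaagaagtgctccag
These tags held 98.7% of the count of Cdk1 over the 4 libraries, 100% for Birc5, 96.8% for Mki67 and 97.4% for Stmn1. All are listed as the tag nearest the 3' end of the transcript, and each stood under 1 gene. Of the 51 tags that differ from each by 1 base after the CATG, 0 stood under another gene. The remaining copies were few. For Cdk1 a second tag entered the count with 3 copies on day 0 alone, since its 1 copy on day 6 fell below the minimum of 2. For Stmn1 a second tag had 2, 0, 5 and 0 copies on days 0, 3, 6 and 9. The same main tag therefore carried each gene on every day.

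The stretch just before the start of each gene is shown as background on the 4 genes. A link between its motifs and the counts by day was not tested. Genes used in mitosis often carry a short element called the cell cycle genes homology region, read by the complex of DREAM, MuvB and B-Myb, near CCAAT boxes bound by NF-Y, while genes used in replication often carry E2F sites. The 250 bases before the RefSeq start are printed 5′ to 3′ on the strand of the gene, in the build GRCr8, which is not the build of the tag files. All 4 genes were found in the RefSeq promoter table. Capitals mark the motifs searched for on both strands, namely TTTGAA for the homology region, CCAAT for the CCAAT box, and TTTGGCGC, TTTCCCGC, TTTGCCGC and TTTCGCGC for E2F. The locations are chr20:19265043-19265292 on the plus strand for Cdk1, chr10:103571896-103572145 on the plus strand for Birc5, chr1:199952594-199952843 on the minus strand for Mki67, and chr5:151964929-151965178 on the plus strand for Stmn1.
Cdk1: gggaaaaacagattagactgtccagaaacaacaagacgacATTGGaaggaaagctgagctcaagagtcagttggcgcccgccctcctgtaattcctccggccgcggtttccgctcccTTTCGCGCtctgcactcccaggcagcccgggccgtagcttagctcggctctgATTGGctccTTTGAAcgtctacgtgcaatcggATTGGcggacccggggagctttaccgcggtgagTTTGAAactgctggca
Birc5: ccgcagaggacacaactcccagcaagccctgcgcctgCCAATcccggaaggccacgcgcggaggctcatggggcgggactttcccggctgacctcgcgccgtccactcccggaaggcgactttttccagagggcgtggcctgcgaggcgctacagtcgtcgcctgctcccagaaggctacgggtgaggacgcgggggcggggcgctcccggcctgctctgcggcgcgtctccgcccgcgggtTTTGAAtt
Mki67: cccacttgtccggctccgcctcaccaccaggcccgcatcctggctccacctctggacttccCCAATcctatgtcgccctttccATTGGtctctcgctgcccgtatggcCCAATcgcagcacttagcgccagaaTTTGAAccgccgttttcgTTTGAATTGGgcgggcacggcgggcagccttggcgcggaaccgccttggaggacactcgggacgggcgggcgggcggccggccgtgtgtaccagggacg
Stmn1: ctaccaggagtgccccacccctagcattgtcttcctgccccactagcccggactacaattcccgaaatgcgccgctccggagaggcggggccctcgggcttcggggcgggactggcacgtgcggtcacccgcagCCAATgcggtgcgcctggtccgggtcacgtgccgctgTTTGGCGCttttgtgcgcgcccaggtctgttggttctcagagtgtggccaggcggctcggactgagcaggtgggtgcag

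TTTGAA was found 72 and 16 bases before the start of Cdk1, 8 bases before that of Birc5, and 117 and 99 bases before that of Mki67. These letters were not in the window of Stmn1. In Mki67 the nearer TTTGAA shares a base with a CCAAT on the other strand. A CCAAT was present in all 4 windows, once in Birc5 and in Stmn1, 3 times in Cdk1 and 4 times in Mki67. An E2F motif stood 133 bases before the start of Cdk1 as TTTCGCGC and 79 bases before that of Stmn1 as TTTGGCGC. Among all 33469 promoters of the same length, 16.2% held TTTGAA, 34% held CCAAT and 1.73% held an E2F motif. Among the 9746 that belong to genes listed in the files these shares were 10.5, 34.9 and 3.14%. By list, TTTGAA stood in 11 of 16 promoters of spindle, motor and cytokinesis genes (68.8%) and in 6 of 14 of mitotic entry genes (42.9%), against 1 of 23 of replication genes (4.35%). These lists are the extremes. The share was 41.7% for mitotic chromosome structure, 33.3% for the passenger complex list of Birc5 and 23.1% for mitotic exit. It was 28.6% for G1 cyclins, 25% for the inhibitor of apoptosis family, 14.3% for arrest genes and 12.5% for stathmins and tubulins. CCAAT stood in 56.5% of replication promoters and in 58.3 to 71.4% of those of the 5 mitotic lists. For the E2F motif the shares were 8 of 23 in replication genes (34.8%), 1 of 16 in spindle genes (6.25%) and 2 of 14 in mitotic entry genes (14.3%). A match describes the letters and does not show that a factor binds there.

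**Figure D1:**
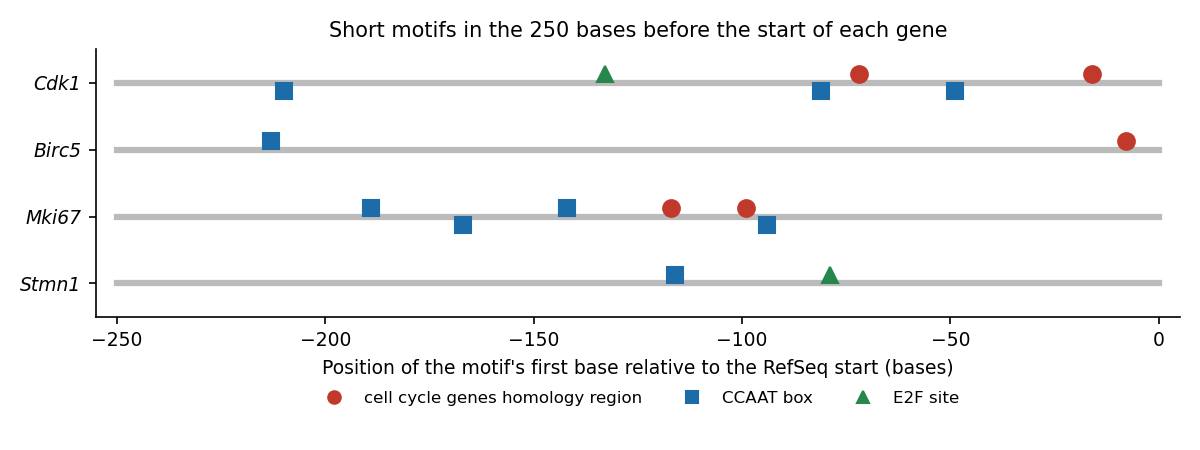
Motifs in the 250 bases before the RefSeq start (GRCr8) of Cdk1, Birc5, Mki67 and Stmn1 (y axis), with the position of the first base of each match relative to the start on the x axis in bases, symbols for the kind of motif, and symbols above or below the grey line for matches on the strand of the gene or the other strand. The homology region is seen at 16 and 72 bases in Cdk1, at 8 in Birc5 and at 99 and 117 in Mki67, and is not among the matches in Stmn1.

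The libraries were of like depth, with 1952921 to 1982608 counts in genes, so 1 count is close to the same share in each. Counts were scaled by totals and TMM factors of 0.978 to 1.02 and are given as CPM, counts set against the scaled library total. The skin markers were present: Krt14 of the basal layer had 295, 144, 319 and 353 counts on days 0, 3, 6 and 9, and none of the 6 basal keratinocyte markers found, of 8 listed, was at 0. Their summed level was 1687, 1501, 1817 and 1560 CPM. Krt5 was not analysed here. The makeup of the samples differed between days, since the 7 skeletal muscle markers summed to 1914, 4078, 32.9 and 3759 CPM, with Acta1, Ckm, Myh1, Myh2 and Myl1 at 0 on day 6.

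Cdk1 (gene ID 54237) had 88 counts on day 0 (interval 70.6 to 108), 37 on day 3 (26.1 to 51.0), 174 on day 6 (149 to 202) and 78 on day 9 (61.7 to 97.3). Scaled, these were 43.9, 18.4, 89.4 and 40.9 CPM. The day 3 library was lowest and the day 6 library highest, and days 0 and 9 lay between them with overlapping intervals.
Birc5 (64041) had 54 counts on day 0 (40.6 to 70.5), 16 on day 3 (9.15 to 26.0), 71 on day 6 (55.5 to 89.6) and 32 on day 9 (21.9 to 45.2). Scaled, these were 26.9, 7.94, 36.5 and 16.8 CPM. Day 3 was again lowest and day 9 came next, and the intervals of days 0 and 6 overlapped.
Mki67 (291234) had 31 counts on day 0 (21.1 to 44.0), 10 on day 3 (4.80 to 18.4), 55 on day 6 (41.4 to 71.6) and 29 on day 9 (19.4 to 41.6). Scaled, these were 15.5, 4.97, 28.3 and 15.2 CPM. Its order of days was that of Cdk1, at counts low enough that the day 3 value has a wide interval.
Stmn1 (29332) had 166 counts on day 0 (142 to 193), 28 on day 3 (18.6 to 40.5), 148 on day 6 (125 to 174) and 37 on day 9 (26.1 to 51.0). Scaled, these were 82.8, 13.9, 76.0 and 19.4 CPM. Here the days fell into a high pair, 0 and 6, and a low pair, 3 and 9, with overlapping intervals within each pair and none between them. In whole skin, fewer cells of a type and less RNA per cell cannot be told apart for any of these genes.

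**Figure D2:**
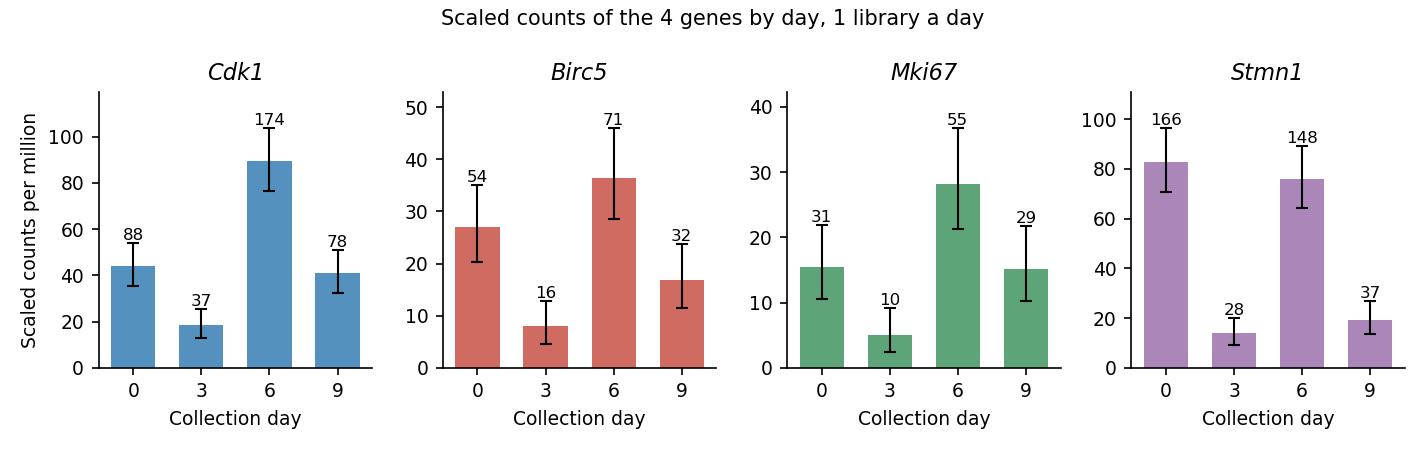
Scaled level of Cdk1, Birc5, Mki67 and Stmn1 (y axis, CPM from 0, a separate scale for each gene) on collection days 0, 3, 6 and 9 (x axis), with 1 library a day, raw counts printed above the bars and exact 95% Poisson intervals as error lines. All 4 are lowest on day 3, Cdk1, Birc5 and Mki67 are highest on day 6, and Stmn1 is at 19.4 CPM on day 9.

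The first question was how the genes stood on day 3, after 2 irradiations, against unirradiated skin. Stmn1 was 5.87-fold lower (3.98 to 9.24), Birc5 3.32-fold lower (1.91 to 6.35) and Cdk1 2.37-fold lower (1.61 to 3.61). Mki67 was 3.02-fold lower (1.49 to 7.12). A gene was called by size when the scaled counts stood 2-fold or more apart, the library with more held 50 counts or more, and the interval left out 1. Cdk1, Birc5 and Stmn1 were called lower, and Mki67 had too few counts to be called. Of the 5342 genes with enough counts, 7.88% were called lower and 8.54% higher. The 4 genes were taken up with such results known, so their count describes them and no more. The 6 comparisons share libraries and are not independent of each other.

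Day 6, after all 4 irradiations, stood apart from day 3 in the other direction. Mki67 was 5.47-fold higher (2.87 to 12.5), Stmn1 5.39-fold (3.63 to 8.51), Cdk1 4.82-fold (3.40 to 7.14) and Birc5 4.48-fold (2.64 to 8.46). All 4 were called higher, beside 2.88% of 5101 genes with enough counts. The low day 3 library enters both this comparison and the one before it. The sum of the 6 basal keratinocyte markers was also lowest on day 3 and highest on day 6. With the libraries scaled to that sum, all 4 genes were still called higher. The sum does not show every marker. Of the 6, Krt14 alone was called lower on day 3 than on day 0, beside 7.88% of all genes. It alone was also called higher on day 6 than on day 3, beside 2.88%. Scaling to Krt14 by itself was not done, and the part of basal cells in these ratios was not tested. The 5 suprabasal keratinocyte markers found, of 8, summed to 17644, 14118, 25153 and 18727 CPM on the 4 days.

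Against day 0, the day 6 library was 2.03-fold higher for Cdk1 (1.57 to 2.66), which was called, beside 7.48% of 5296 genes. That call lies at the edge of the rule, since 6 of the other settings put the fold between 1.885 and 2.00, just under the threshold. Mki67 was 1.81-fold higher (1.16 to 2.94) and Birc5 1.35-fold higher (0.937 to 1.97). Stmn1 was 1.09-fold lower (0.868 to 1.37), so its day 6 level was not distinguishable from day 0 by counting error.

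On day 9 the calls against day 0 differed between the genes. Stmn1 was 4.23-fold lower than on day 0 (2.98 to 6.28) and was called, beside 10.4% of 5345 genes called lower. Birc5 was 1.60-fold lower (1.02 to 2.57), Cdk1 1.07-fold lower (0.783 to 1.48) and Mki67 1.02-fold lower (0.594 to 1.75), and none of these was called. The direction of the small differences of Cdk1 and Mki67 was not the same under every setting. Against day 6, Stmn1 was 3.88-fold lower (2.72 to 5.79), Cdk1 2.18-fold (1.67 to 2.90), Birc5 2.16-fold (1.41 to 3.41) and Mki67 1.85-fold (1.17 to 3.03). The first 3 were called, beside 4.37% of 5127 genes. Scaled to the basal keratinocyte markers, the folds of Cdk1 and Birc5 were 1.87 and 1.85, under the threshold. Against day 3, day 9 was 2.21-fold higher for Cdk1 (1.49 to 3.38), which was called beside 6.41% of 5165 genes. With the authors' deposited value that fold was 1.97, which is not called. For Mki67 the fold was 2.96 (1.45 to 7.04), for Birc5 2.08 (1.12 to 4.12) and for Stmn1 1.39 (0.830 to 2.37), with no call.

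**Figure D3:**
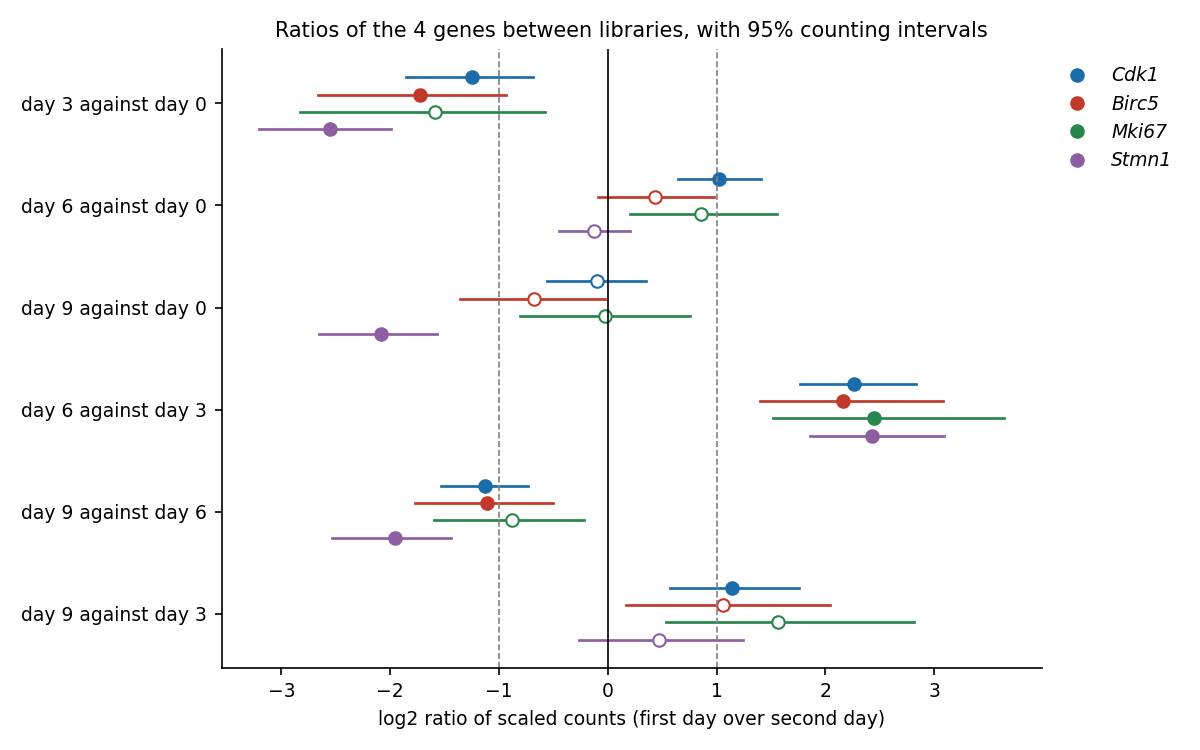
Log2 ratio of scaled counts (x axis, first day over second day) for the 4 genes in the 6 comparisons of days (y axis), with lines for the exact 95% interval, filled symbols for ratios past the size rule, open symbols for the others and dashed lines at 2-fold. All 4 genes lie left of 0 for day 3 against day 0 and right of it for day 6 against day 3, and Stmn1 alone is filled for day 9 against day 0.

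Stmn1 can be set against the other genes within each library, where no scaling enters. The ratio of Cdk1 counts to Stmn1 counts was 0.530 on day 0 (0.405 to 0.691), 1.32 on day 3 (0.787 to 2.24), 1.18 on day 6 (0.939 to 1.47) and 2.11 on day 9 (1.41 to 3.21). The interval of day 0 overlaps none of the later days, and that of day 9 overlaps those of days 3 and 6. Birc5 to Stmn1 was 0.325, 0.571, 0.480 and 0.865 on days 0, 3, 6 and 9, and Mki67 to Stmn1 was 0.187, 0.357, 0.372 and 0.784. In both of these pairs the interval of day 0 overlaps those of days 3 and 6 and not that of day 9. By contrast, Cdk1 to Mki67 was 2.84, 3.70, 3.16 and 2.69 on the 4 days, with intervals that overlap. Cdk1 to Birc5 was 1.63, 2.31, 2.45 and 2.44, and Birc5 to Mki67 was 1.74, 1.60, 1.29 and 1.10. These values differed between days too, but the intervals of the days overlap within both pairs. These ratios follow pairs of genes over days and do not compare the levels of different genes.

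Among the partners of CDK1, the list of cyclins, kinases and phosphatases of mitotic entry had 18 of 20 genes in the files. On day 3 Cdk1, Cks2 and Wee1 were called lower than on day 0, of 4 genes with enough counts, and 0 were higher, beside 7.88% lower and 8.54% higher over all genes. The list had a median log2 ratio of -0.81 over genes with a mean of 10 counts or more, against -0.01 over all 9876 such genes. Cks2, a small subunit that docks on CDK1, had 83, 31, 117 and 58 counts on days 0, 3, 6 and 9. It was 2.66-fold lower on day 3 (1.76 to 4.21) and then 3.86-fold higher on day 6 than on day 3 (2.61 to 6.01). Wee1, the inhibitory kinase, had 59, 22, 42 and 47 counts and was 2.66-fold lower on day 3 (1.63 to 4.62). Ccnb1, cyclin B1, had 27, 8, 28 and 19 counts, too few for a call. Ccnb2 was not analysed here. Ccna2, cyclin A2, and Cks1b, the other CDK1 docking subunit, were chosen after their values were seen. Ccna2 had 8, 7, 38 and 12 counts and was thus high on day 6 alone, and Cks1b had 136, 127, 173 and 76.

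The partners of survivin did not all follow the order of days seen for Birc5. In the list of the chromosomal passenger complex, centromere and spindle checkpoint, 17 of 23 genes were in the files. Of these, 9 had a mean of 10 counts or more, Birc5 among them. All 9 had lower values on day 3 than on day 0, beside 51.9% of all genes with that mean. Only Birc5 of the 2 with enough counts was called lower, beside 7.88% of all genes. The other members of the complex are given here although they were chosen after their values were seen. Aurkb, the kinase of the complex, had 24, 6, 49 and 36 counts on days 0, 3, 6 and 9. Incenp, its scaffold, had 30, 9, 6 and 12, and Cdca8, which encodes borealin, had 34, 7, 18 and 13. All 3 were lower on day 3 than on day 0, by 3.79-fold for Aurkb (1.60 to 12.0), 3.23-fold for Incenp (1.55 to 8.02) and 4.62-fold for Cdca8 (2.13 to 13.1). On day 6, Aurkb was 2.08-fold higher than on day 0 (1.26 to 3.58) while Incenp was 4.56-fold lower (1.99 to 14.3). The intervals of these 2 genes lie on opposite sides of 1, at counts below the minimum for a call.

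Spc25, a kinetochore subunit of the complex that grips microtubules, had 21, 11, 55 and 20 counts and was 2.66-fold higher on day 6 than on day 0 (1.60 to 4.69). Zwint, a kinetochore protein of the checkpoint, had 57, 31, 47 and 80 counts and was highest on day 9. It was 2.70-fold higher there than on day 3 (1.78 to 4.27). Survivin is also counted in the inhibitor of apoptosis family, whose other members block caspases or tag proteins for decay. Of its 6 genes in the files at most 2 had enough counts in a comparison, too few to set Birc5 against its family. Birc5 was called lower on day 3 than on day 0, beside 7.88% of all genes. It was called higher on day 6 than on day 3, beside 2.88%, and lower on day 9 than on day 6, beside 4.37%. The others were not called. Birc6, the member with the most counts, had 121, 147, 171 and 136.

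**Figure D4:**
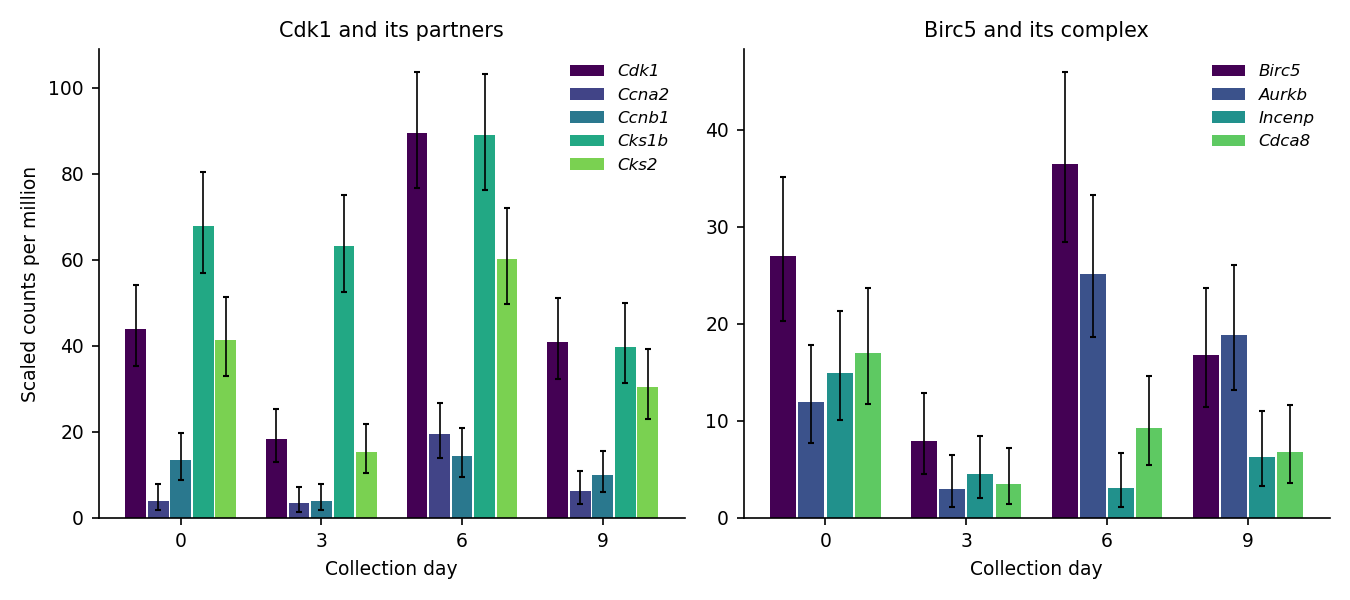
Scaled level (y axis, CPM from 0) by collection day (x axis) of Cdk1 with Ccna2, Ccnb1, Cks1b and Cks2 (left) and of Birc5 with Aurkb, Incenp and Cdca8 (right), with 1 library a day and exact 95% Poisson intervals as error lines. Cks2 has the low day 3 and high day 6 of Cdk1, while Incenp, at 6 counts on day 6, does not follow Birc5 and Aurkb.

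Beside Mki67, the list of mitotic chromosome structure had 13 of 17 genes in the files. Smc2 and Ncapd2, subunits of condensin, were called lower on day 3 than on day 0, of 8 genes with enough counts, beside 7.88% of all genes. Ncapd2 had 75, 21, 78 and 47 counts, a 3.53-fold lower value on day 3 (2.19 to 6.13) and a 3.78-fold higher one on day 6 than on day 3 (2.35 to 6.55). Smc2 had 50, 23, 63 and 38 counts, with a 2.16-fold lower value on day 3 (1.31 to 3.75). Both had the low day 3 and higher day 6 of Mki67. Ncaph2, of the second condensin complex, had 50, 44, 44 and 22 counts and was 2.14-fold lower on day 9 than on day 0 (1.29 to 3.75). The cohesin gene Smc1a, which also serves outside mitosis, had 154, 169, 202 and 110 counts, with no call against day 0. Top2a, the topoisomerase that untangles chromosomes, had 11, 0, 7 and 0 counts. With a floor of 3 counts for a library at 0, it was at least 3.69-fold lower on day 3 and at least 3.49-fold lower on day 9 than on day 0, taking the 11 counts of day 0 as exact. With the counting error of both libraries the intervals of these ratios begin at 2.52 and 2.39.

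For Stmn1 the list of stathmins and tubulins had 10 of 16 genes in the files. On day 3 Stmn1, Stmn2 and Tubb5 were called lower than on day 0, of 6 with enough counts, beside 7.88% of all genes. Stmn2, a stathmin best known from neurons, had 91, 9, 16 and 6 counts and was 9.68-fold lower on day 3 (5.12 to 22.9), 5.39-fold lower on day 6 (3.23 to 10.1) and 13.4-fold lower on day 9 (6.39 to 40.4). Unlike Stmn1 it was called lower on day 6, as were 13.1% of all genes with enough counts, and 95.1% of its count came from a tag listed as the ninth from the 3' end, so that its count may not follow the usual tag of the transcript. Tubb5, a widely used beta-tubulin, had 204, 102, 172 and 105 counts and was 2.01-fold lower on day 3 (1.58 to 2.58), at the edge of the rule. Tubb3, a beta-tubulin of neurons, had 16, 15, 20 and 52 counts and was 3.34-fold higher on day 9 than on day 0 (1.92 to 6.40), a call made for 10.7% of genes. Tuba4a, with the most counts of the list, had 936, 731, 955 and 903. It stood 1.29-fold lower on day 3 (1.17 to 1.42), far less than Stmn1.

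In the list of spindle, motor and cytokinesis genes 18 of 25 were in the files, with a median log2 ratio of -1.29 on day 3, 0.34 on day 6 and -1.02 on day 9 against day 0. Only Numa1, which anchors spindle poles, had enough counts, with 124, 86, 87 and 56, and it was 2.10-fold lower on day 9 (1.53 to 2.95). Racgap1 and Prc1, both needed for the midzone between separating chromosomes and chosen after their values were seen, had 44, 3, 15 and 11 and 31, 0, 5 and 7 counts. The list of the anaphase-promoting complex and mitotic exit had 16 of 18 genes in the files, with medians of -0.17, 0.13 and -0.16. Of its 6, 7 and 6 genes with enough counts on days 3, 6 and 9, 0 were called against day 0. Over all genes the shares were 7.88, 13.1 and 10.4% lower and 8.54, 7.48 and 10.7% higher. The most counted gene of the list, Anapc5, a core subunit, had 573, 642, 582 and 561 counts. Cdc20, Pttg1 and Ube2c, all below 50 counts, were chosen after their values were seen. Cdc20 had 24, 6, 20 and 5 counts, Pttg1 had 16, 5, 6 and 2, and Ube2c had 10, 3, 34 and 5. With a minimum of 10 counts, Cdc20 and Pttg1 were called lower on days 3 and 9 than on day 0. Ube2c was then called higher on day 6, and no other gene of the list was called. Over all genes at that minimum, 8.35 and 10.5% were called lower on days 3 and 9, and 8.27% higher on day 6.

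Over the 5 mitotic lists without Cdk1, Birc5 and Mki67, 79 genes were in the files and 50 of them had a mean of 10 counts or more. Of these 50, 41 had a lower value on day 3 than on day 0 (82%), beside 51.9% of all genes with that mean. Their median log2 ratio was -0.62. On day 6 it was 0.20, on day 9 -0.34, and for day 6 against day 3 it was 0.90. The lowest value fell on day 3 for 31 of the 50 (62%), beside 21.2% of all genes, and the highest on day 6 for 27 (54%), beside 23.8%. Wee1, Ncapd2, Smc2 and Cks2 were called lower on day 3, of 19 with enough counts, and 0 were called higher. Over all genes 7.88% were called lower and 8.54% higher. With the minimum set at 10 counts, 23 of 58 were called lower on day 3 (39.7%, beside 8.35% of all genes at that minimum) and 0 higher (beside 9.44%). For day 6 against day 3, 24 of 54 were then called higher (44.4%, beside 4.01%). Against day 0, day 6 had 7 higher and 8 lower of 63 at that minimum, beside 8.27% higher and 13.9% lower over all genes. The day 6 library thus held both directions at shares near those of all genes.

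Other parts of the cycle were read from lists of the same kind. The S-phase and replication list had 27 of 29 genes in the files, with medians of -0.73 on day 3, 0.45 on day 6 and -0.93 on day 9 against day 0. On day 9, 5 of 12 were called lower (beside 10.4% of all genes), namely Mcm2, Mcm6, Rrm1, Tk1 and Prim1, of which Mcm2, Tk1 and Prim1 are named after their values were seen. Rrm1, which makes deoxynucleotides, had 103, 32, 127 and 48 counts and was 3.20-fold lower on day 3 (2.16 to 4.97) and 2.03-fold lower on day 9 (1.44 to 2.94). Pcna, the sliding clamp, had 186, 137, 270 and 118 counts and was 2.04-fold higher on day 6 than on day 3 (1.65 to 2.52). Mcm6, a helicase subunit, had 140, 85, 152 and 60 counts, and Rfc4, of the clamp loader, had 45, 45, 102 and 55, which is 2.32-fold higher on day 6 than on day 0 (1.63 to 3.39). Mcm4, another helicase subunit, had 104, 13, 31 and 51 counts, but its main tag had 98, 0, 0 and 38 copies, so its count rested on different tags on different days.

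Among G1 cyclins, their kinases and E2F factors, 0 of 6 genes with enough counts were called against day 0 on any day. Over all genes 7.88 to 13.1% were called lower and 7.48 to 10.7% higher on those days. Ccnd1, cyclin D1, had 761, 500, 669 and 550 counts. Of the cell cycle inhibitors and arrest genes, 15 of 20 were in the files. On day 3, 3 of 10 with enough counts were called higher than on day 0 (beside 8.54% of all genes), and 4 of 11 were on day 6 (beside 7.48%) and on day 9 (beside 10.7%), with Cdkn2d, named after its values were seen, lower on day 6. The medians of the list were 0.06, 0.27 and -0.11, so the list as a whole did not share the size of those calls. Cdkn1a, which encodes the kinase inhibitor p21, had 291, 1197, 1303 and 947 counts. Its 2 main tags had 118, 0, 1206 and 457 copies and 142, 1100, 0 and 397 copies, so its count rested on different tags on days 3 and 6. Ccng1, a p53 target, had 303, 1885, 1776 and 1831, and Cdkn2b, the inhibitor p15, had 45, 101, 161 and 139. Gadd45a, an arrest gene, had 25, 28, 63 and 59. Cdkn1a was 4.09-fold higher on day 3 (3.60 to 4.67) and 4.60-fold higher on day 6 (4.06 to 5.25) than on day 0, while Cdk1 was 2.37-fold lower on day 3 and 2.03-fold higher on day 6.

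**Figure D5:**
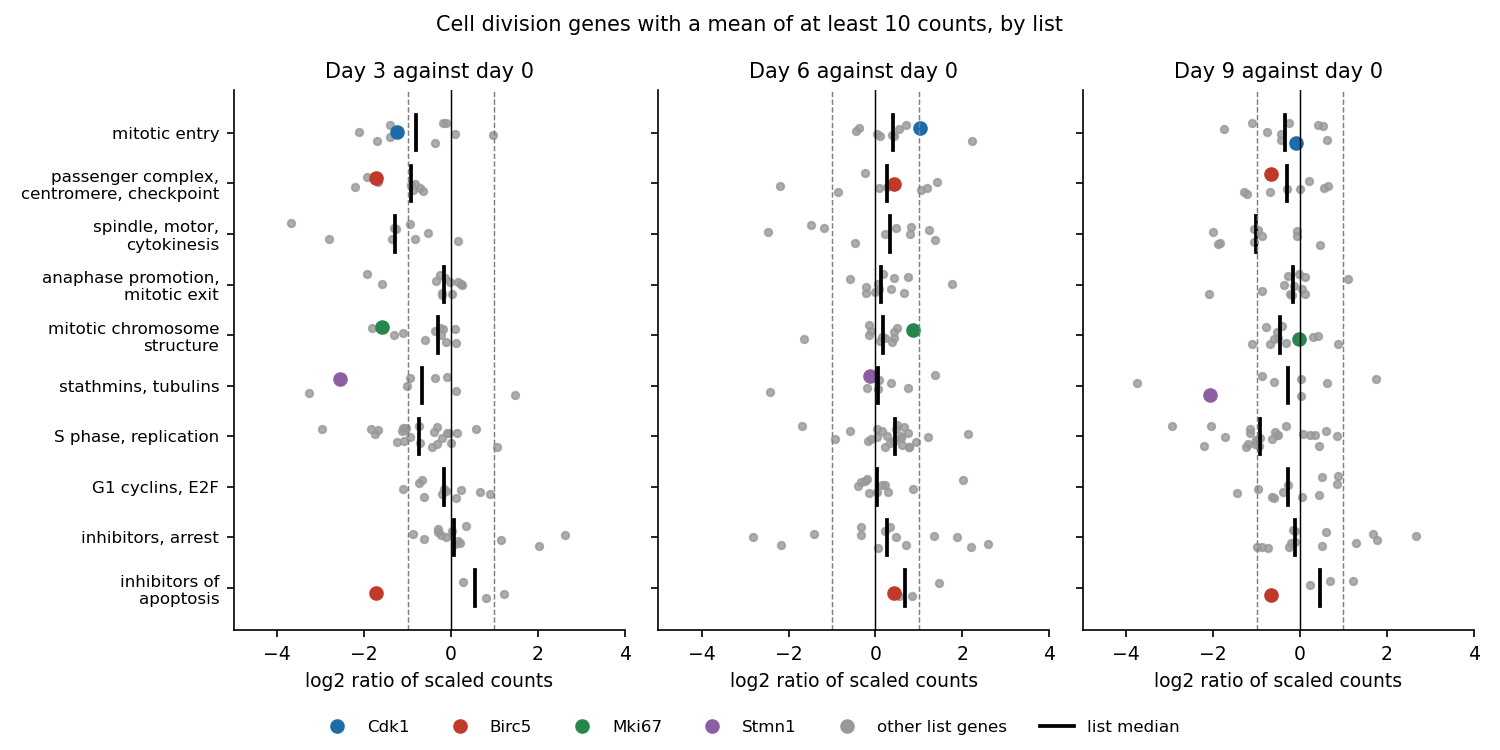
Log2 ratio of scaled counts against day 0 (x axis) on days 3, 6 and 9 (panels) for the genes of 10 cell division lists (y axis) with a mean of at least 10 counts, with 1 library a day, grey points for genes, coloured points for Cdk1, Birc5, Mki67 and Stmn1, black bars for list medians and dashed lines at 2-fold. On day 3 the spindle list has its median at -1.29 and the mitotic entry list at -0.81, and on day 9 the replication list has it at -0.93.

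Markers of other cells moved between days and stand beside these results. The 7 fibroblast markers summed to 8608, 31852, 24868 and 24034 CPM on days 0, 3, 6 and 9, the 6 macrophage markers to 207, 466, 417 and 322, and the 4 of 6 neutrophil markers found to 36.4, 30.8, 23.6 and 534. Only 2 of these 4 had a mean of 10 counts or more, S100a8 and S100a9, named after their values were seen. Both were called higher on day 9 than on day 0, beside 10.7% of all genes. Mpo and Elane were not found. The 6 endothelial markers summed to 135, 156, 221 and 142 CPM, the 5 of 6 sweat gland markers found to 235, 414, 62.2 and 273, and the 4 of 5 adipocyte markers to 92.8, 511, 175 and 341. Markers at 0 were Cdh5 on days 0, 6 and 9 and Kdr on day 3 for endothelium, Csf3r on days 0, 3 and 9 and Cxcr2 on days 0 and 6 for neutrophils, and Lep on days 0 and 6 for adipocytes. Krt18 was at 0 on day 6, Krt27 on days 3 and 6, and the entry for Krt71 on day 6. The 3 of 7 hair follicle markers found summed to 14.0, 6.45, 6.17 and 8.91 CPM. The sums of the sweat gland and skeletal muscle lists were highest on day 3 and lowest on day 6, the reverse of Cdk1. Those of the basal and suprabasal keratinocyte lists were lowest on day 3 and highest on day 6. Not every marker followed its sum. On day 3, 3 of the 6 basal and 4 of the 5 suprabasal markers had a lower value than on day 0. The part of these lists in the results was not tested.

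The genes with the most similar course were found as the nearest by Euclidean distance of log2 scaled counts centred over the 4 libraries, which is a description over 4 points. For Cdk1 they were Spc25 (0.321), Mki67 (0.326) and Cks2 (0.365) among 4682 genes with at least 50 counts in a library, with Birc5 at rank 4. For Birc5 they were Cks2 (0.243), Rrm1 (0.308) and Ncapd2 (0.310). For Mki67, among 6013 genes with at least 30 counts, they were Cdk1 (0.326), Ns5atp9 (0.345) and Tmem194b (0.464). Ns5atp9 had 28, 8, 62 and 28 counts and Tmem194b had 23, 10, 38 and 19. For Stmn1 the nearest were farther off, namely Rrm1 (0.814), H2afx (0.884) and Krt2 (1.01). H2afx, a histone variant that marks DNA breaks when phosphorylated, had 65, 21, 61 and 27 counts, and Krt2, a keratin of the upper epidermis, had 798, 285, 589 and 195. Cdk1, Birc5 and Mki67 each ranked within the 5 nearest of the others, while Stmn1 ranked 810 from Cdk1, 68 from Birc5 and 562 from Mki67. Seen from Stmn1, Birc5 was at rank 4 (1.01), Cdk1 at rank 49 and Mki67 at rank 56.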

How the data were processed

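Each of the 4 libraries came with a gene table and a tag list. Per the file headers, the authors summed the copies of 21-base tags seen at least 2 times into a whole-number count per gene, and the values they deposited under the heading TPM are CPM, that is counts scaled to all such tags with no regard to transcript length. Per the submitters' processing notes the build was Rnor_6.0, while aligner and annotation version were not given in the sources used here. Sequenced tags numbered 3360368 to 3592019, of which 56.9 to 60.6% of those seen at least 2 times fell in genes.

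Counts were scaled with TMM factors (edgeR 4.0.16). Ratios used a prior count of 0.5, and intervals are exact, Poisson for 1 count and Clopper-Pearson for a ratio (scipy 1.17.1), so they cover counting error only. Calls by size needed 2-fold, 50 counts and an interval without 1. A single library for each day allows no test, no spread between animals and no leaving out of replicates. The procedure was tested on simulated data.

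The members and the 10 cell division and 11 marker lists were chosen with earlier results of these data known, and 1 marker list is not reported here. Of 267 list symbols 212 were found, 3 of them through the RefSeq table. Genes named were the 4 members, list members called against day 0 (at most 4 by count) with the most counted of each list, a few standard markers (Cdkn1a, Pcna, Top2a, Ccnb1, Krt14) and the 3 nearest genes, and any others are marked in the text. The alternatives were other scalings, prior counts, tags, minimums and folds.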

Additional observations from a re-analysis of the deposited data

How the results depend on the processing

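Over 264 alternative values of the 24 ratios of the 4 genes, 0 moved by more than their counting interval, and 9 calls changed: Cdk1 on day 6 against day 0 under 6 settings, Cdk1 and Birc5 on day 9 against day 6 with basal keratinocyte scaling, and Cdk1 on day 9 against day 3 with the authors' deposited value. That scaling, like the adding of tags 1 base away, was chosen after seeing the data. No paired analysis was possible because each day had 1 library, and no replicate could be left out. Counts of calls followed the thresholds. In what follows the order is day 3, 6 and 9 against day 0, day 6 against 3, day 9 against 6 and day 9 against 3. Over all genes 877, 1090, 1129, 491, 739 and 568 were called, of 5342, 5296, 5345, 5101, 5127 and 5165 with enough counts. With a minimum of 10 counts there were 1918, 2362, 2315, 1388, 1807 and 1441, with 200 there were 272, 320, 353, 141, 218 and 181, and with none 2229, 2722, 2632, 1652, 2098 and 1697. At 1.5-fold there were 2024, 2138, 2289, 1264, 1687 and 1479, and at 3-fold 251, 479, 364, 185, 287 and 150. Over the 155 genes of the cell division lists 14, 10, 14, 17, 16 and 8 were called, of 54, 61, 58, 54, 57 and 45 with enough counts. With a minimum of 10 there were 45, 32, 35, 53, 39 and 19, with 200 there were 3, 2, 2, 3, 2 and 0, and with none 46, 33, 36, 55, 40 and 21. At 1.5-fold the first 5 were 24, 20, 26, 26 and 32, and at 3-fold all were 8, 6, 6, 8, 2 and 2. Scaled to all sequenced tags, the split of higher against lower calls over all genes was 528 to 321 for day 3 against day 0 (456 to 421 in the main scaling), 97 to 446 for day 6 against day 3 (147 to 344) and 250 to 310 for day 9 against day 3 (331 to 237). With the authors' deposited values these were 500 to 291, 84 to 415 and 228 to 287. The median of all genes then shifted by up to 0.13 on the log2 scale with all sequenced tags, and by up to 0.28 with basal keratinocyte scaling. Depth limited Mki67 most, with 10 counts on day 3.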
